A study of Mus musculus with 8 samples.

Results

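The miR-23, miR-24 and miR-27 families were followed in mouse bone marrow-derived macrophages (BMDMs) through 7 mature arms, mmu-miR-23a-3p, mmu-miR-23b-3p, mmu-miR-24-3p, mmu-miR-24-1-5p, mmu-miR-24-2-5p, mmu-miR-27a-3p and mmu-miR-27b-3p. They were picked by name among the miRNA features, by a rule that uses no measured value, although earlier results of these data were known. They are 7 of the 3514 features listed for either sequencing run, of which 1063 are mature miRNAs, and all 7 are listed for both runs. miR-24 was also among the RNAs by which the study normalised RT-qPCR of human serum. Its RT-qPCR of cultured BMDMs was mostly normalised by U2 snRNA instead. miR-24-3p was compared here with the arms made from the same transcripts.

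The BMDMs came from 10-week-old male C57BL/6J mice and had been grown with L929-cell conditioned medium, a usual source of Macrophage-Colony Stimulating Factor (M-CSF), the growth factor on which these cells depend. Control cells received no treatment, and M-CSF withdrawal, an apoptotic stimulus, lasted 36 h. The Ion Proton run held 2 control and 2 withdrawal libraries of total RNA, and the SOLiD run held 1 control and 1 withdrawal library of total RNA and 1 of each from RNA size-selected at 25 to 40 nt. All groups are of the same strain, with no other allele or agent, and the methods call the Ion Proton replicates biological ones, without saying whether these were separate mice or cultures.

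A miRNA hairpin is cut into a duplex of a 5p and a 3p arm, of which one is usually kept by an Argonaute protein and guides it to messenger RNAs, mainly through the seed near its 5′ end. The 6 hairpins of these families lie in a pair of paralogous clusters, each transcribed as 1 primary RNA with the order miR-23, miR-27, miR-24. In blood cells the miR-23a cluster is known as a target of the myeloid factor PU.1, and in macrophages miR-27 is known for repressing genes of cholesterol efflux, among them Abca1. miR-23 is known for repressing glutaminase, and miR-24 for repressing cell cycle genes.

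The sequences are shown because the pairs of paralogous arms differ so little. Capitals mark the seed (bases 2 to 8), and in the miR-23 and miR-27 arms also base 19, counted from the 5′ end, the only base at which the paralogs differ.
mmu-miR-23a-3p: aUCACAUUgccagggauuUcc
mmu-miR-23b-3p: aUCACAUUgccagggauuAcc
mmu-miR-27a-3p: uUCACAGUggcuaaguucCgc
mmu-miR-27b-3p: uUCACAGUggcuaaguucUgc
mmu-miR-24-3p: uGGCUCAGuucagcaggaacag
mmu-miR-24-2-5p: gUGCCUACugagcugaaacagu
mmu-miR-24-1-5p: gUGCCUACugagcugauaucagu
The miR-23 paralogs differ by U19A and the miR-27 paralogs by C19U, with the a form given first, so that each pair shares its seed. miR-24-3p is the same molecule from both of its hairpins, so that its reads cannot be divided between them, while its 5p partners share their first 16 bases and differ after them. The 7 arms therefore hold 4 seeds. The sequences of 6 arms are those of RefSeq (GRCm38.p6), and that of miR-23b-3p was taken from the deposited Ion Proton table.

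On chromosome 8 of mm10, plus strand, Mir23a lies at chr8:84208518-84208592, Mir27a at chr8:84208672-84208758 and Mir24-2 at chr8:84208815-84208921, within 404 bases. In the GENCODE annotation Mir24-2 overlaps an exon of the lincRNA Gm26532, whereas Mir23a and Mir27a overlap no other annotated gene. On chromosome 13, plus strand, Mir23b lies at chr13:63300484-63300557, Mir27b at chr13:63300712-63300784 and Mir24-1 at chr13:63301208-63301275, within 792 bases. There Mir23b is in an intron of the protein-coding gene 2010111I01Rik, Mir27b overlaps an exon of 1 of its transcripts and Mir24-1 exons of 4, and all 3 are antisense to an intron of Fancc. Both miR-24 hairpins are overlapped on the minus strand by a miR-3074 hairpin. The Ion Proton table places miR-24-3p on chromosome 8 and the SOLiD table places it on chromosome 13.

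**Figure D1:**
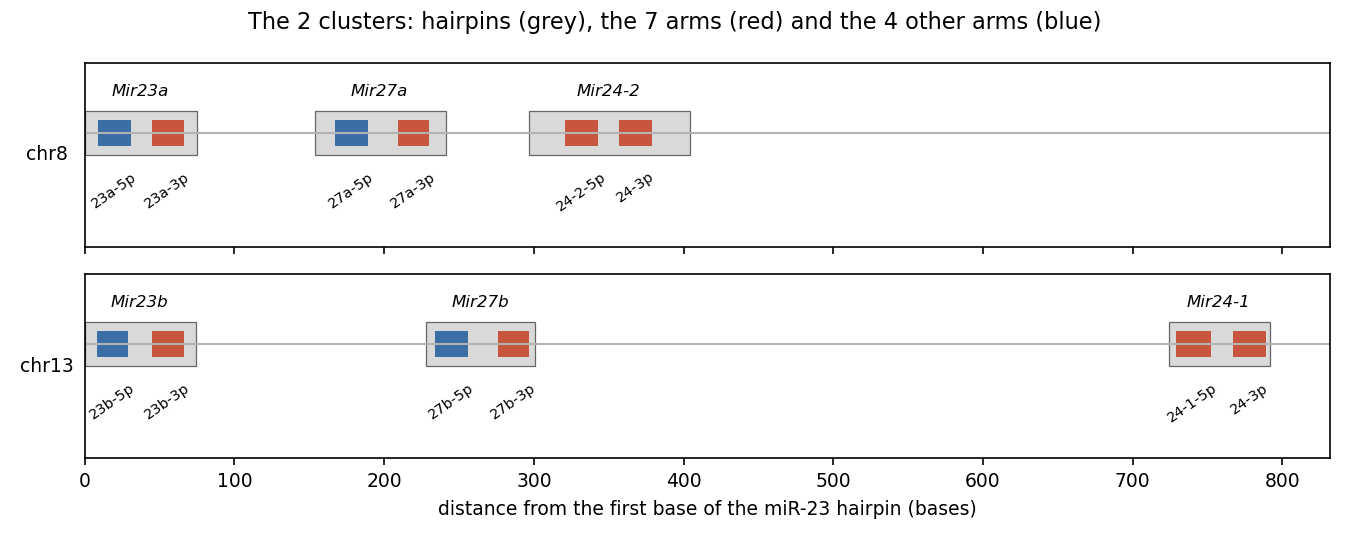
Map of both clusters drawn to scale, with the distance from the first base of the miR-23 hairpin in bases on the horizontal axis. Grey boxes are hairpins, red boxes the 7 arms described and blue boxes the 4 other arms; the chromosome 8 cluster spans 404 bases and the chromosome 13 cluster 792.

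Reads on listed features numbered 6053130 to 7760142 per Ion Proton library and 4039837 to 12178454 per SOLiD library. Mature miRNAs took 39.99% and 41.2% of the reads in the control libraries of the Ion Proton run and 29.5% and 29.9% after withdrawal. In the SOLiD run they took 82.0% in control and 41.1% after withdrawal for total RNA, and 87.2% and 44.98% for size-selected RNA. Levels are counts per 1000000 reads on features (CPM) for Ion Proton and reads per 1000000 (RPM) for SOLiD, and intervals in brackets are 95% Wilson intervals, which cover counting error only. As a check of the cell type, the summed level of 5 myeloid miRNAs, among them miR-223-3p and miR-146a-5p, was 9851 to 10934 CPM in the controls of the Ion Proton run and 8461 to 8776 CPM after withdrawal. In the SOLiD run, which lists 3 of the 5, it was 25283 and 11599 RPM in total RNA and 52997 and 34390 RPM in size-selected RNA. Most of the Ion Proton sum was miR-146a-5p, with a mean of 9107 CPM in control, while miR-223-3p had 96.5 and 83.7 CPM there. Not all moved with the sum, as miR-155-5p had 361 RPM in control and 575 RPM after withdrawal in SOLiD total RNA. Of 8 miRNAs of other cell types, the 5 listed for Ion Proton summed to 5.01 and 10.95 CPM in the 2 control libraries and to 12.7 and 13.5 CPM after withdrawal. The 6 listed for SOLiD summed to 5468 RPM in control and 4430 RPM after withdrawal in total RNA. In size-selected RNA they summed to 4119 and 6590 RPM. The erythroid miR-451a led in each SOLiD library, though the erythroid miR-144-3p had only 1.46 to 2.97 RPM. Next came the epithelial miR-200b-3p, with 1844 and 1452 RPM in total RNA and 1430 and 2060 RPM in size-selected RNA. The muscle miR-133a-3p followed with 207 to 394 RPM. The RNA integrity number was 8.4 in control and 7.5 after withdrawal for SOLiD total RNA, 2.7 and 2.6 for size-selected RNA, and 8.8 and 8.4 against 8.9 and 8.4 for Ion Proton. The part of such RNA and of RNA integrity in the results below was not tested.

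The 7 arms spanned over 3 orders of magnitude within each library. They are 21 to 23 nt long, so that their CPM or RPM can be set side by side without a correction for length. In the Ion Proton control libraries the order was miR-27b-3p with 6000 ± 332 CPM (mean ± SD, n = 2), miR-24-3p with 2058 ± 48.9, miR-24-2-5p with 411 ± 38.1, miR-23b-3p with 218 ± 24.2, miR-27a-3p with 149 ± 2.07, miR-23a-3p with 141 ± 1.54 and miR-24-1-5p with 1.04 ± 1.29 CPM. After withdrawal the order was the same down to miR-23b-3p, and the ranges of miR-23a-3p and miR-27a-3p overlapped (103 and 123 CPM against 98.9 and 121 CPM), so that these neighbours did not differ beyond their spread.

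The SOLiD run gave another order. In its control library of total RNA, miR-24-3p had 14743 RPM (14645 to 14842) and miR-23a-3p 14534 RPM (14436 to 14632), followed by miR-23b-3p with 9740, miR-27a-3p with 4845, miR-24-2-5p with 733, miR-24-1-5p with 69.3 and miR-27b-3p with 9.87 RPM (7.62 to 12.8). Each is 1 library, so that the gap between the first 2 has no replicate check. The 7 arms, at 21 to 23 nt, are shorter than the 25 to 40 nt that were selected for the other SOLiD libraries. Their levels, changes and ratios there are of arms outside the selected range, and how these came through the selection was not tested. In the size-selected control library both miR-23 arms led, with 24000 RPM for miR-23a-3p and 22696 RPM for miR-23b-3p, ahead of miR-24-3p with 11466 RPM, miR-27a-3p with 1688, miR-24-2-5p with 553, miR-24-1-5p with 66.2 and miR-27b-3p with 6.96 RPM. Among mature miRNAs, miR-24-3p ranked 5 in the SOLiD control library of total RNA and 16 in the size-selected one, and 26 and 27 in the controls of the Ion Proton run.

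**Figure D2:**
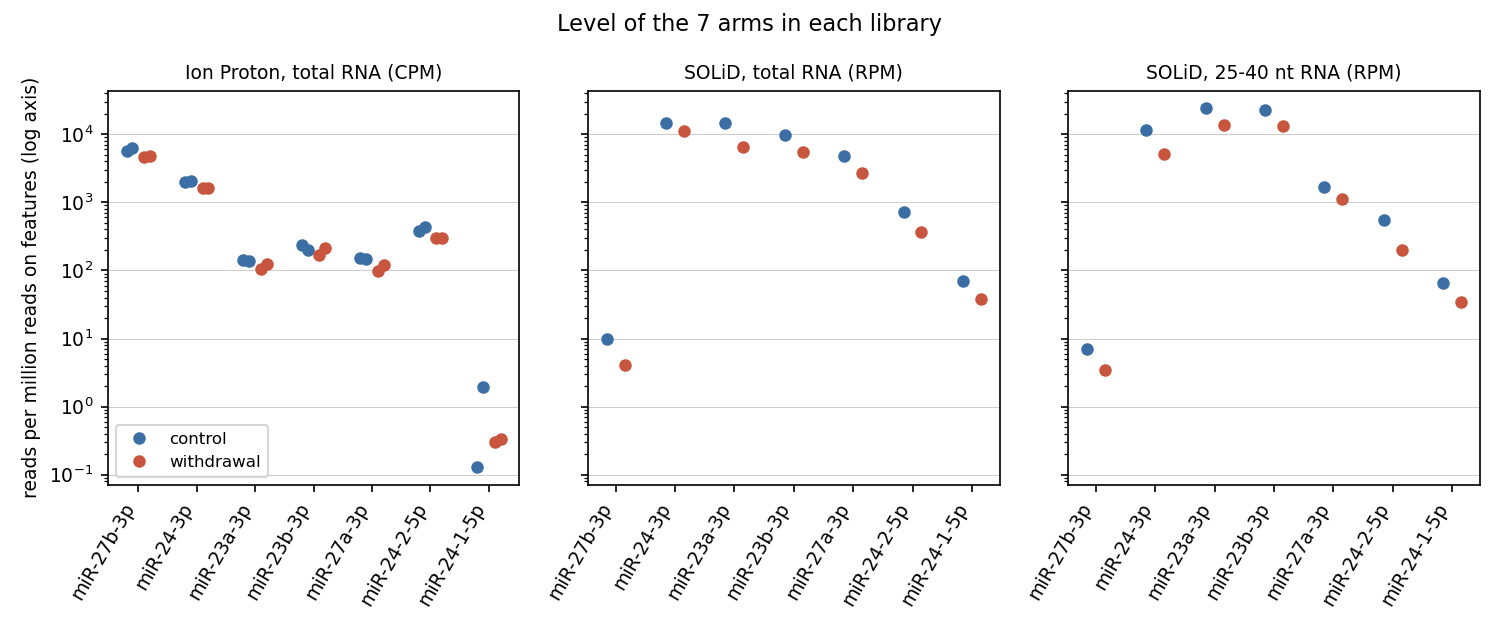
Level of each arm in each of the 8 libraries, in CPM (Ion Proton) or RPM (SOLiD) on a log axis, with 1 point per library, blue for control and red for M-CSF withdrawal. miR-27b-3p leads in all 4 Ion Proton libraries, at 4599 to 6235 CPM, and is last in all 4 SOLiD libraries, at 3.47 to 9.87 RPM.

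miR-27b-3p thus stood at opposite ends in the 2 runs. In the Ion Proton run it had 5765 and 6235 CPM in control and 4599 and 4737 CPM after withdrawal, rank 17 among mature miRNAs in each. In the SOLiD run it had 9.87 and 4.11 RPM in control and withdrawal total RNA and 6.96 and 3.47 RPM in size-selected RNA, from 14 to 62 reads. Its paralog miR-27a-3p behaved the other way, with 150 and 147 CPM in control and 98.9 and 121 CPM after withdrawal in the Ion Proton run, against 4845 and 2743 RPM in SOLiD total RNA and 1688 and 1122 RPM in size-selected RNA. The ranges of the paralogs did not overlap in either run, and their order was reversed between the runs.

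The sum of both miR-27 arms differed less between the runs than either arm. In control it was 5915 and 6382 CPM for Ion Proton against 4855 RPM for SOLiD total RNA. For miR-23 the sum was 377 and 340 CPM against 24274 RPM. The median mature miRNA was lower in the Ion Proton run, at a log2 ratio of -2.78 (given below). The miR-27 sum was higher there, and was not placed on this scale. Of the reads on the 7 arms, the miR-27-3p arms took 68.0% to 69.0% in the 4 Ion Proton libraries and 10.4% to 10.9% in SOLiD total RNA, whereas the miR-23-3p arms took 3.68% to 4.71% and 45.3% to 54.3%.

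To place these differences, the log2 ratio of the control levels in the Ion Proton and SOLiD total RNA libraries, each plus 1, was taken for the 299 mature miRNAs with at least 10 CPM or RPM in either run. Its median was -2.78 and its quartiles were -4.61 and 1.24. miR-24-3p lay near the median at -2.84. miR-27a-3p (-5.02), miR-24-1-5p (-5.11), miR-23b-3p (-5.48) and miR-23a-3p (-6.68) lay below the lower quartile. miR-24-2-5p was at -0.83, and miR-27b-3p was at 9.11, with only 2 of the 299 miRNAs above it. Of 19 pairs of these miRNAs that have the same length and differ at 1 base, some of them sharing a member, miR-27a-3p and miR-27b-3p had the largest change of their log2 ratio between the runs, from -5.33 to 8.80, a difference of 14.1 against a median of 2.75 over the 19 pairs in absolute value. miR-23a-3p and miR-23b-3p went from -0.62 to 0.58, and ranked 17 by this difference, although their order also changed. The order of the pair changed in 5 of the 19. The tables give no reads, so that the assignment of reads between such pairs is uncertain, and the cause of the difference was not tested.

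**Figure D3:**
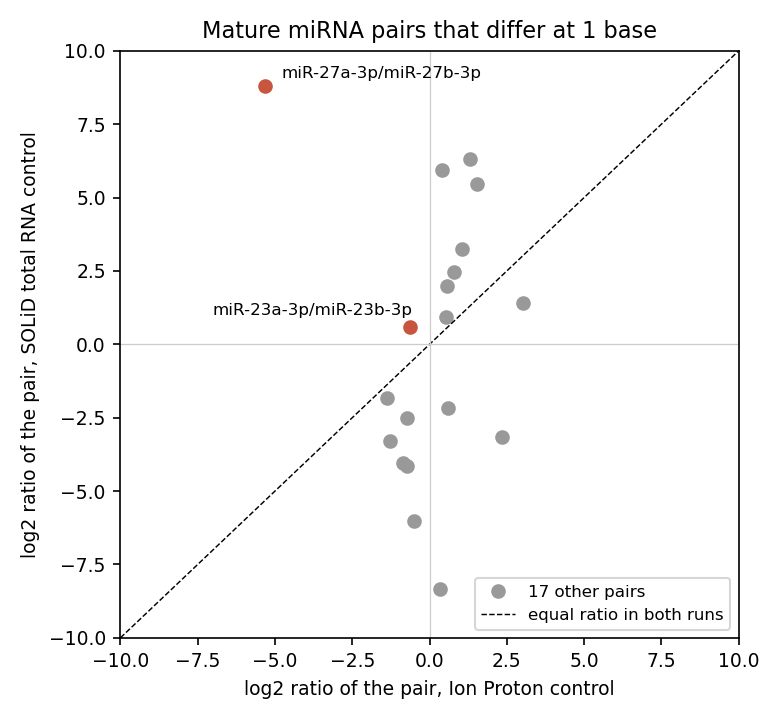
Log2 ratio of the members of 19 pairs of mature miRNAs that differ at 1 base, in the Ion Proton control libraries (horizontal, mean of 2) and in the SOLiD control library of total RNA (vertical), on levels plus 1. The dashed line marks an equal ratio; miR-27a-3p/miR-27b-3p lies at -5.33 and 8.80, and miR-23a-3p/miR-23b-3p at -0.62 and 0.58.

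M-CSF withdrawal was accompanied by lower CPM and RPM of the abundant arms, of about the size seen for mature miRNAs as a class. In the Ion Proton run miR-24-3p and miR-27b-3p fell, in SOLiD total RNA the 7 arms were lower with log2 ratios of -0.38 to -1.17, and per 1000000 mature miRNA reads these differences were small or of the other sign. In bulk RNA, fewer molecules per cell cannot be told apart from fewer cells that hold them, and a lower CPM or RPM cannot be told apart from a change in the other RNAs counted.

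In the Ion Proton run miR-24-3p had 2024 and 2093 CPM in control and 1624 and 1605 CPM after withdrawal. Both withdrawal libraries were below both control libraries. Its log2 fold change was -0.30 (SE 0.0651, adjusted p = 0.0362, quasi-likelihood test of edgeR, adjusted by Benjamini-Hochberg over 2029 features). For miR-27b-3p the log2 fold change was -0.31 (SE 0.0744, adjusted p = 0.0476, same test), again without overlap. These were 2 of the 7 arms, while 8.97% of all features tested and 13.3% of the mature miRNAs tested were called lower.

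The other 5 arms did not pass. miR-24-2-5p, the 5p partner of miR-24-3p from the chromosome 8 hairpin, had 384 and 438 CPM in control and 302 and 301 CPM after withdrawal, with a log2 fold change of -0.39 at an adjusted p of 0.0502 in edgeR. For miR-27a-3p the log2 fold change was -0.38 (adjusted p = 0.118, edgeR), for miR-23a-3p, with 142 and 140 against 104 and 123 CPM, it was -0.27 (adjusted p = 0.209, edgeR), and for both arms the groups did not overlap. miR-23b-3p overlapped, with 235 and 201 CPM in control and 166 and 212 CPM after withdrawal (log2 fold change -0.15, adjusted p = 0.590, edgeR). miR-24-1-5p had 1 and 14 reads in control and 2 in each withdrawal library, too few to show a difference at this depth. In all, 5 of the 7 arms (71.4%) were lower in both withdrawal libraries, as were 568 of 2029 features (28%). The share among mature miRNAs, a class with a lower median change than all features, is not given here.

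Relative to the miRNA class these changes were small. Over 186 mature miRNAs with a mean of at least 10 CPM the median log2 fold change was -0.37, against 0.068 over 852 features of any kind, and the 6 abundant arms differed from that miRNA median by -0.026 to 0.22. When the factors were taken over mature miRNAs alone, the median over all features tested moved from 0.077 to 0.46 and none of the 7 arms was called, with log2 fold changes of 0.086 for miR-24-3p, 0.075 for miR-27b-3p, 0.23 for miR-23b-3p and 0.11 for miR-23a-3p. The calls of miR-24-3p and miR-27b-3p were also lost without the second control library (adjusted p = 0.0936 and 0.105, edgeR), without the first withdrawal library (0.160 and 0.164) and without the second (0.143 and 0.0972).

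**Figure D4:**
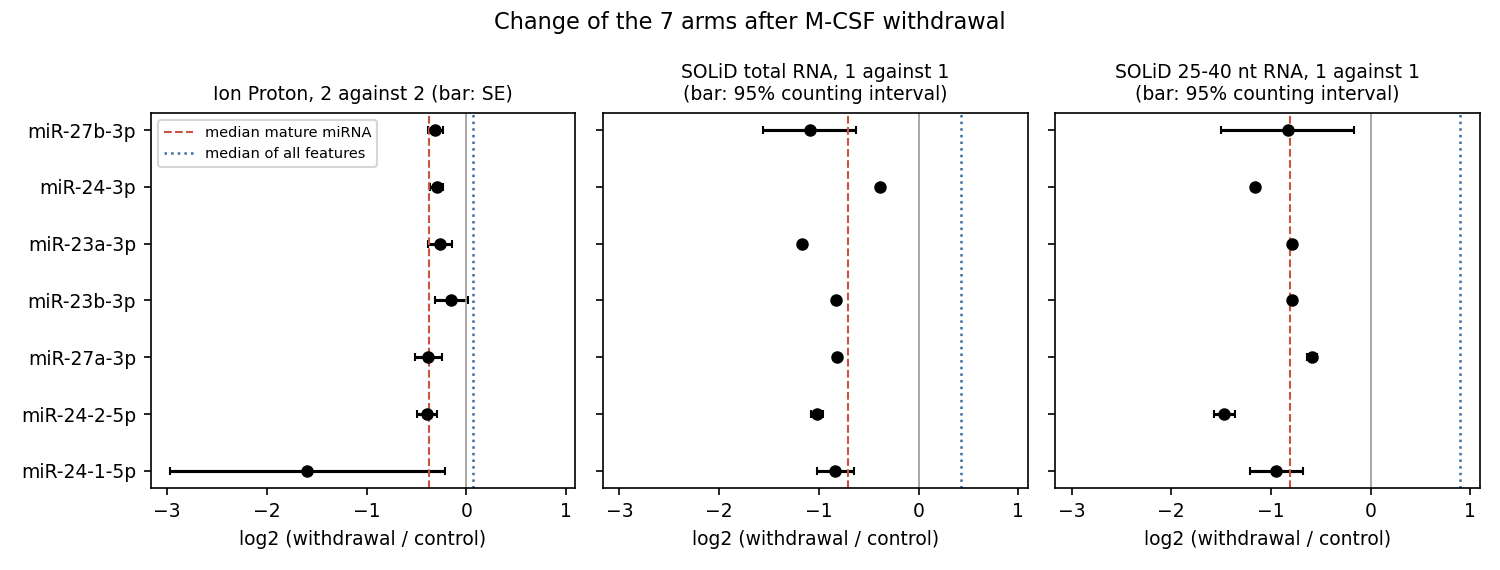
Log2 ratio of withdrawal to control for the 7 arms in the Ion Proton run (points with SE, 2 against 2 libraries), in SOLiD total RNA and in SOLiD size-selected RNA (points with 95% counting intervals, 1 against 1 library). The dashed line is the median of mature miRNAs and the dotted line the median of all features with at least 10 CPM or RPM; miR-24-3p lies above the miRNA median in SOLiD total RNA and below it in size-selected RNA.

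In the SOLiD run there was 1 library per group, so that no test was possible and "called" means at least 2-fold. In total RNA miR-24-3p had 14743 RPM in control and 11299 RPM after withdrawal, a log2 ratio of -0.38 (-0.40 to -0.37, levels plus 1), the smallest difference among the 7 arms. miR-27a-3p (4845 and 2743 RPM, log2 ratio -0.82), miR-23b-3p (9740 and 5502 RPM, -0.82) and miR-24-1-5p (69.3 and 38.4 RPM, -0.83) lay near the median of 258 mature miRNAs, -0.71. miR-23a-3p (14534 and 6452 RPM, -1.17), miR-27b-3p (9.87 and 4.11 RPM, -1.09 with a counting interval of -1.56 to -0.62) and miR-24-2-5p (733 and 362 RPM, -1.01) were past 2-fold. With a pseudocount of 5 miR-27b-3p was at -0.71, short of 2-fold. On levels plus 1 these were 3 of 7 arms, while 21.9% of mature miRNAs and 9.27% of all features were lower by at least 2-fold. Per 1000000 mature miRNA reads none was, and miR-24-3p was higher after withdrawal, with a log2 ratio of 0.61, as were miR-27a-3p (0.17), miR-23b-3p (0.17) and miR-24-1-5p (0.14).

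In size-selected RNA, where all 7 arms are shorter than the selected range, the order was another one. miR-24-3p had 11466 RPM in control and 5128 RPM after withdrawal, a log2 ratio of -1.16 (-1.18 to -1.14), and miR-24-2-5p had 553 and 200 RPM, a log2 ratio of -1.47. These 2 of 7 arms were past 2-fold, while 23.4% of mature miRNAs and 9.62% of all features were. miR-23a-3p (24000 and 13924 RPM) and miR-23b-3p (22696 and 13167 RPM) both had a log2 ratio of -0.79, close to the median of 262 mature miRNAs, -0.81. miR-27a-3p had the smallest difference here, with 1688 and 1122 RPM and a log2 ratio of -0.59, while miR-24-1-5p was at -0.94 and miR-27b-3p at -0.83. miR-24-3p thus lay 0.33 above the miRNA median in total RNA and 0.35 below it in size-selected RNA. Scaled to 1000000 mature miRNA reads, miR-23a-3p (0.17), miR-23b-3p (0.17) and miR-27a-3p (0.37) were higher after withdrawal, and miR-24-3p was at -0.21 and miR-24-2-5p at -0.52.

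With both runs in 1 model over the 6 libraries of total RNA, none of the 7 arms passed the threshold in limma, and 5 had an unadjusted p under 0.05, as did, in the same direction, 13.9% of all features tested and 28.4% of the mature miRNAs tested. limma voom and edgeR on the reads of both runs called none either. By adjusted p, 5.7% of all features tested and 9.71% of the mature miRNAs were called lower. The log2 changes on levels plus 1 were -0.36 for miR-24-3p (SE 0.111, adjusted p = 0.0749, limma), -0.41 for miR-23b-3p, -0.57 for miR-27a-3p, -0.59 for miR-24-1-5p, -0.60 for both miR-23a-3p and miR-27b-3p and -0.63 for miR-24-2-5p (adjusted p = 0.0651, limma), around a median of -0.57 for mature miRNAs with at least 10 CPM or RPM. Per 1000000 mature miRNA reads the median over all features moved from 0.17 to 0.69, and miR-24-3p (0.27), miR-23b-3p (0.22), miR-27a-3p (0.065) and miR-23a-3p (0.026) turned positive. Without either SOLiD library the fit rests on the Ion Proton run, and 4 of the 7 arms were called, miR-24-3p (adjusted p = 0.0142 and 0.0151, limma), miR-27b-3p (0.0201 and 0.0207), miR-24-2-5p (0.0217 and 0.0212) and miR-27a-3p (0.0474 and 0.0460). Calls rose for features of any kind as well. Of 1701 features, 564 and 560 were called, 244 and 242 of them lower, in place of 295 and 97.

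An interaction in limma gave the log2 change in the SOLiD run minus that in the Ion Proton run. The spread in this fit comes from the Ion Proton replicates alone, since SOLiD total RNA has 1 library per group. Its p-values therefore do not cover the spread between SOLiD libraries. The interaction was called for 2 of the 7 arms, both with the larger fall in the SOLiD run. It was -0.73 (SE 0.132, adjusted p = 0.0189, limma) for miR-27b-3p and -0.85 (SE 0.178, adjusted p = 0.0275, limma) for miR-23a-3p. For miR-27b-3p the SOLiD log2 ratio alone had a counting interval of -1.56 to -0.62. Of all features tested 5% were called in that direction, and of the mature miRNAs 11.5%, around a median of -0.40 for mature miRNAs with at least 10 CPM or RPM. For miR-24-3p the interaction was -0.033 (SE 0.105, adjusted p = 0.842, limma). Per 1000000 mature miRNA reads neither miR-27b-3p (-0.34, adjusted p = 0.112, limma) nor miR-23a-3p (-0.30, adjusted p = 0.275, limma) was called, and miR-24-3p was called in the other direction (0.51, adjusted p = 0.0187, limma). At that scaling 601 of 1701 features of any kind were called, 25 of them negative, around a median of 0.78 over all features. With a pseudocount of 5, miR-27b-3p was at -0.35 and no longer called (adjusted p = 0.103, limma), and miR-24-2-5p was (-0.57, adjusted p = 0.0477, limma). Without 1 Ion Proton library, control or withdrawal, the fit keeps little information on the spread. Over these fits the interaction was -0.67 to -0.79 for miR-27b-3p and -0.73 to -0.97 for miR-23a-3p.

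Ratios of CPM or RPM within a library do not depend on its scaling, and so show whether miR-24-3p moved with its partners. In the 4 Ion Proton libraries, miR-24-3p stood to miR-23a-3p at a ratio of 14.2 and 14.96 in control and 15.7 and 13.1 after withdrawal, and the ratio to miR-27b-3p was 0.351 and 0.336 in control and 0.353 and 0.339 after withdrawal. Control and withdrawal libraries overlapped for both, and also for miR-23b-3p and miR-27a-3p. Only the ratio to miR-24-2-5p did not overlap, with 5.27 and 4.78 in control and 5.38 and 5.32 after withdrawal.

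In SOLiD total RNA all 5 ratios were higher after withdrawal. That to miR-23a-3p went from 1.01 to 1.75, that to miR-23b-3p from 1.51 to 2.05, that to miR-27a-3p from 3.04 to 4.12 and that to miR-24-2-5p from 20.1 to 31.2. In size-selected RNA the ratio to miR-24-2-5p was also higher, 20.7 and 25.7, while those to miR-23a-3p (0.478 and 0.368), miR-23b-3p (0.505 and 0.389) and miR-27a-3p (6.79 and 4.57) were lower.

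Over the 6 libraries of total RNA, the mean difference of the log2 ratio of miR-24-3p was taken on levels plus 1. It was 0.24 to miR-23a-3p, 0.053 to miR-23b-3p, 0.20 to miR-27a-3p, 0.24 to miR-27b-3p and 0.27 to miR-24-2-5p. For a scarce arm the added 1 makes such a ratio depend on scaling. With a pseudocount of 5 the difference to miR-27b-3p was 0.12. None of the 8 ratios tested passed an exact two-sided permutation test within runs, whose smallest possible p is 0.167 for 12 arrangements. That value was reached for miR-24-2-5p (adjusted p = 0.889, exact permutation test over 8 ratios), and the smallest adjusted p over the 8 was also 0.889. The ratio of miR-23a-3p to miR-23b-3p differed by -0.19, from -0.11 in the Ion Proton run and -0.35 in SOLiD total RNA, and the ratio of miR-27a-3p to miR-27b-3p differed by 0.039 (exact permutation p = 0.333 and 1).

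**Figure D5:**
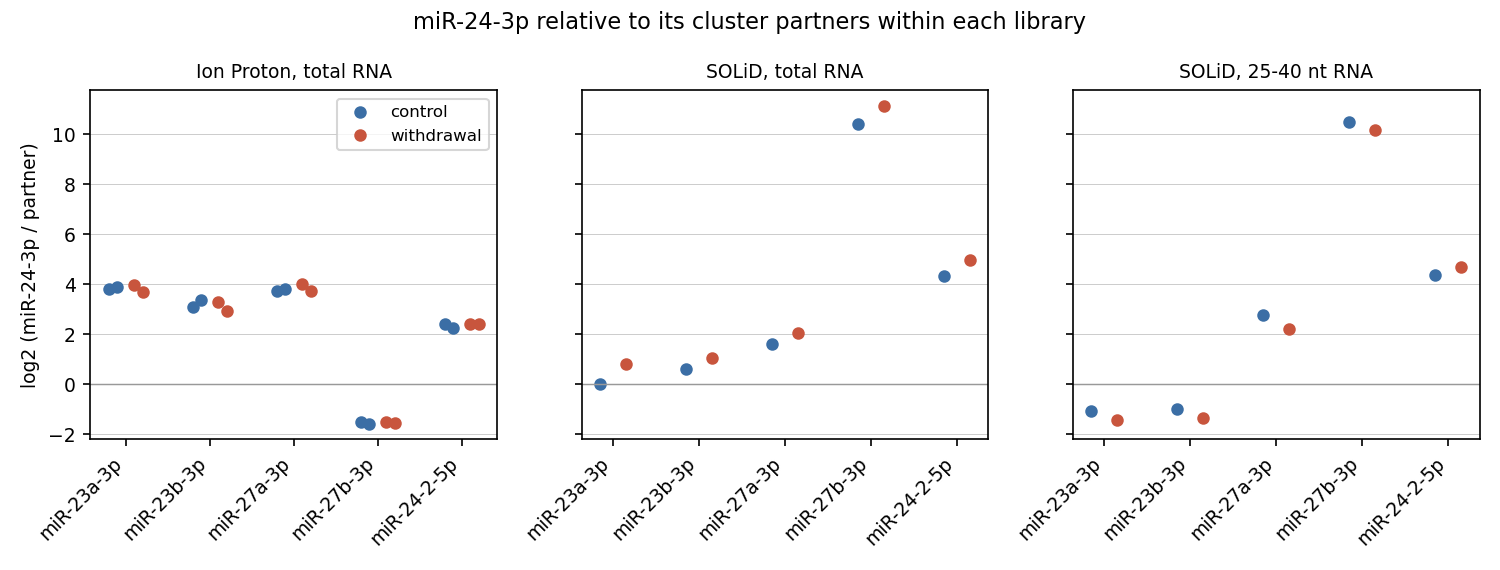
Log2 ratio of miR-24-3p to 5 partners within each library, on CPM or RPM plus 1, with 1 point per library, blue for control and red for M-CSF withdrawal. The 5 ratios are higher after withdrawal in SOLiD total RNA, overlap for 4 of the 5 partners in the Ion Proton run, and are lower for 4 of the 5 in size-selected RNA.

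The 5p partners of miR-24 differed in level far more than in change. miR-24-2-5p exceeded miR-24-1-5p in every library, with 302 to 438 CPM against 0.129 to 1.95 CPM in the Ion Proton run and 200 to 733 RPM against 33.9 to 69.3 RPM in the SOLiD run. The ratio was 10.6 in the SOLiD control library of total RNA and 9.43 in the withdrawal library, and 8.36 and 5.88 in the size-selected pair. Since the 5p arms tell the hairpins apart, the chromosome 8 hairpin had the more abundant 5p arm in each library, although the 3p arms of that cluster were not the more abundant ones throughout: miR-23a-3p was below miR-23b-3p in all 4 Ion Proton libraries, at a ratio of 0.579 to 0.698, and above it in all 4 SOLiD libraries, at 1.06 to 1.49.

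The 4 other arms of these hairpins were scarce. miR-23a-5p, miR-23b-5p, miR-27a-5p and miR-27b-5p together took 0.233% to 0.270% of the reads of the 7 arms in the Ion Proton run and 0.350% to 0.433% in the SOLiD run. miR-27a-5p had 8.63 and 8.08 CPM in control and 9.05 and 9.25 CPM after withdrawal, and miR-27b-5p had 6.06 and 9.75 CPM in control and 6.29 and 6.61 CPM after withdrawal. None of the 4 passed the edgeR test. The closest was miR-23a-5p, with 56 and 17 reads in control and 4 in each withdrawal library (log2 fold change -2.83, adjusted p = 0.0543, edgeR), while in SOLiD total RNA it had 4 reads in control and 15 after withdrawal. The interaction was called for miR-23b-5p, with -1.98 (adjusted p = 0.0207, limma), which had 1.55 and 1.39 CPM in control and 1.84 and 1.98 CPM after withdrawal in the Ion Proton run, and 20.96 and 5.58 RPM in SOLiD total RNA.

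Hairpin features that overlap the arms held few reads. The Mir23b hairpin (ENSMUST00000083665) had 39 to 50 reads per Ion Proton library and 73 to 273 per SOLiD library. The Mir27a (ENSMUST00000083510), Mir27b (ENSMUST00000083541) and Mir24-2 (ENSMUST00000083607) hairpins had 1 to 8 per Ion Proton library, and the Mir23a hairpin (ENSMUST00000083677) 1 read in the 4 Ion Proton libraries together. Per SOLiD library the Mir23a hairpin had 28 to 181 reads, Mir27a 6 to 116, Mir27b 12 to 20 and Mir24-2 16 to 35. The Mir27a hairpin had 6.41 RPM in control and 9.53 RPM after withdrawal in SOLiD total RNA, and 2.47 and 1.49 RPM in size-selected RNA. The Mir24-1 hairpin was not analysed here. None of those tested passed the test of the Ion Proton run in edgeR or that of both runs in limma. Of the antisense miR-3074 features, which were named after their values were seen, miR-3074-1-3p was called in both runs together (log2 change -0.87, adjusted p = 0.0355, limma), from 11 and 9 against 2 and 1 reads in the Ion Proton run and 9 against 6 reads in SOLiD total RNA. It lies opposite Mir24-1, and the sources used here do not say whether counting used strand.

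Among 138 other mature miRNAs with a mean of at least 10 CPM or RPM in each of the 3 sets of libraries, those whose 3 log2 changes lay nearest to miR-24-3p were let-7i-5p (root mean square difference 0.0585), miR-7a-5p (0.0822) and miR-26b-5p (0.111). let-7i-5p had -0.37 in the Ion Proton run, -0.32 in SOLiD total RNA and -1.20 in size-selected RNA, beside -0.30, -0.38 and -1.16 for miR-24-3p. The cluster partners were farther off, with miR-23b-3p ranked 31, miR-24-2-5p 45, miR-27a-3p 51 and miR-23a-3p 68 by this distance. miR-27b-3p was not ranked, because it was below 10 RPM in the SOLiD run. These distances cover 3 comparisons, and are a description.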

How the data were processed

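Small RNA libraries of control BMDMs and of BMDMs after 36 h of M-CSF withdrawal were compared. Ion Proton reads were trimmed by the authors with cutadapt 1.2.1, kept from 15 bases on and mapped to mm10 with bowtie2 2.2.4, with up to 10 places per read, and the authors deposited raw counts per feature; whether a read was counted at each place is not given in the sources used here. For the SOLiD run they mapped reads with LifeScope 2.5.1 and deposited RPM, with a decimal comma, from which whole reads were recovered for 100% of values above 0 (tolerance 0.01). Features come from miRBase 21 and Ensembl 75. The methods name total RNA for the Ion Proton libraries and the labels name small RNA; the wording of the methods was used.

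Counts of the Ion Proton run were tested with edgeR 4.0.16 (TMM factors, quasi-likelihood), leaving out features with fewer than 5 reads in all. For both runs, limma 3.58.1 was fitted to the 6 total RNA libraries on log2 of CPM or RPM plus 1, with treatment and run and, for the interaction, their product, over 1701 features in both tables with at least 5 reads in each run. P-values were adjusted by Benjamini-Hochberg across each fit, and 0.05 was the threshold. SOLiD ratios have counting intervals only. Ratios between arms were compared by exact permutation within runs. DESeq2 1.42.0, other factors, filters, pseudocounts and scalings, fits that block on replicate number and fits without 1 library were the alternatives. Python 3.11.15, scipy 1.17.1 and R 4.3.3 were used, and the fits were tested on simulated data. Named features were the 7 arms, the 4 other arms, the overlapping hairpin features, and the 3 miRNAs nearest to miR-24-3p in their changes. The arms and lists were chosen with earlier results of these data known.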

Additional observations from a re-analysis of the deposited data

Results flagged for a closer look

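The interaction of M-CSF withdrawal and run in limma was called for miR-27b-3p (-0.73 on the log2 scale, adjusted p = 0.0189), miR-23a-3p (-0.85, adjusted p = 0.0275) and miR-23b-5p (-1.98, adjusted p = 0.0207). The larger fall was in the SOLiD run for the first 2. miR-23b-5p was lower after withdrawal in SOLiD total RNA and higher, without passing the test, in the Ion Proton run (log2 fold change 0.43, adjusted p = 0.543, edgeR). The SOLiD side rests on 1 library per group, and for miR-27b-3p on 57 and 50 reads. These adjusted p-values hold the spread of the Ion Proton replicates only. The share of mature miRNAs among all reads was 82.0% in control and 41.1% after withdrawal in that pair, and 39.99% and 41.2% against 29.5% and 29.9% in the Ion Proton run. Per 1000000 mature miRNA reads the interaction of miR-27b-3p (-0.34) and of miR-23a-3p (-0.30) was no longer called, and with a pseudocount of 5 that of miR-27b-3p was -0.35 (adjusted p = 0.103, limma).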

How the results depend on the processing

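Number of the 7 arms called. Of all 2029 features tested in the Ion Proton run, 182 were called lower, and 238 with DESeq2. Of the 7 arms, 2 were called there. DESeq2 called 4, factors over mature miRNAs alone called 0, and leaving out 1 library gave 0 to 3. In both runs together, 0 were called, 4 with each library centred on its median feature, and 0 to 4 when a library was left out. Centred in this way, 230 of all 1701 features were called lower in place of 97. For the interaction, 2 were called, 1 per 1000000 mature miRNA reads (miR-24-3p, in the other direction), 6 with centred libraries, and 2 with a pseudocount of 5, where miR-24-2-5p takes the place of miR-27b-3p. Negative calls among all 1701 features numbered 85, against 244 with centred libraries and 171 with a pseudocount of 5. Per 1000000 mature miRNA reads 601 features were called, 25 of them negative. Leaving out 1 Ion Proton library gave 0 arms, but also 0 to 211 of all 1701 features in place of 443, so that these fits say little of the arms. At least 2-fold lower were 3 in SOLiD total RNA and 2 in size-selected RNA, against 0 and 0 per 1000000 mature miRNA reads and 6 and 7 with centred libraries. Centring subtracted medians over all features of 0.43 and 0.90, while the miRNA medians were -0.71 and -0.81. The median mature miRNA was thereby past 2-fold as well. Per 1000000 mature miRNA reads the log2 ratio turned positive for miR-24-3p, miR-23b-3p, miR-27a-3p and miR-24-1-5p in total RNA (0.14 to 0.61) and for miR-23a-3p (0.17), miR-23b-3p (0.17) and miR-27a-3p (0.37) in size-selected RNA.

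Same-numbered Ion Proton replicates did not deviate together (correlation 0.0056 over 852 features), so that the numbers are not known to pair the libraries. With the replicate number as a block, the Ion Proton run called 0 of the 7 arms, with log2 fold changes of -0.30 for miR-24-3p and -0.31 for miR-27b-3p (adjusted p = 0.0850 and 0.0809, edgeR), and 359 features in place of 500. In both runs together the block left 29 calls in place of 295, and it changed no interaction call among the 7 arms.

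Signs of tested values turned in these cases. Factors over mature miRNAs alone gave 0.075 for miR-27b-3p, 0.086 for miR-24-3p, 0.23 for miR-23b-3p and 0.11 for miR-23a-3p in the Ion Proton run. Leaving out 1 library gave -0.35 to 0.036 for miR-23b-3p (the highest without the first withdrawal library) and -2.60 to 1.25 for miR-24-1-5p (the highest without the second control library). Per 1000000 mature miRNA reads the change in both runs was 0.27 for miR-24-3p, 0.22 for miR-23b-3p, 0.065 for miR-27a-3p and 0.026 for miR-23a-3p, and the interaction was 0.51 for miR-24-3p, 0.16 for miR-27a-3p and 0.55 for miR-24-1-5p, which was -1.06 to 0.33 when 1 Ion Proton library was left out. With the Ion Proton libraries only, the difference in the log2 ratio of miR-24-3p was -0.029 to miR-23a-3p and -0.14 to miR-23b-3p, that of miR-27a-3p to miR-27b-3p was -0.077 and that of miR-24-2-5p to miR-24-1-5p was 0.026. Leaving out 1 library gave -0.029 to 0.40, -0.14 to 0.21, -0.077 to 0.14 and -0.40 to 0.28 for these ratios. With the size-selected libraries added, miR-24-3p to miR-23b-3p was -0.054, and with a pseudocount of 5 miR-27a-3p to miR-27b-3p was -0.080. The cause was not tested. Depth limits miR-24-1-5p in the Ion Proton run and miR-27b-3p in the SOLiD run, both under 100 reads per library there.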
